A study of Homo sapiens with 77 samples.

Results

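ADAR and 6 proteins that sense or relay double-stranded RNA were followed through a CRISPR-Cas9 screen and 2 RNA-seq experiments in lymphoma cell lines. The 7 genes are ADAR, IFIH1, DDX58 (the table's name for RIGI), EIF2AK2, MAVS, ZBP1 and DHX58, out of 35813 genes in the first RNA-seq table and 21455 in the second. They were chosen by the screen readout, because the ADAR score fell in KARPAS422 and not in K562, so the ADAR values of the screen are described without a test. Only ADAR is targeted by the sgRNA library, with 4 sgRNAs among 2306. All 7 genes are listed in both RNA-seq tables.

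The screen counted sgRNAs of a chromatin-focused library at day 0 and day 14 in Cas9-expressing KARPAS422 and K562. KARPAS422 came from a diffuse large B-cell lymphoma (DLBCL) and carries mutant EZH2, while K562 is a chronic myeloid leukaemia line with wildtype EZH2. The first RNA-seq experiment compared DMSO with MI-503, an inhibitor of menin (MEN1, a subunit of the MLL1 histone methyltransferase complex), at 0.8 µM for 3 days in 4 DLBCL lines: KARPAS422 and DB (EZH2 mutant) and Farage and SUDHL5 (EZH2 wildtype). The second compared DMSO control cells with the menin inhibitor VTP50469 (0.33 µM), the EZH2 inhibitor EPZ-6438 (1 µM) and both drugs, for 48 h in KARPAS422 and 24 h in SuDHL10, both EZH2 mutant. Every RNA-seq group had 2 libraries, 32 in all, and no label says that replicates came from separate cultures, so the p-values measure only the spread between these libraries, which may be technical. Each line is 1 established culture, and a difference between lines cannot be told apart from their EZH2 status, origin or culture.

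Double-stranded RNA in the cytoplasm is read as a sign of viral infection. MDA5 (encoded by IFIH1) and RIG-I (encoded by DDX58) bind it and signal through MAVS, an adaptor on the mitochondrial membrane, to switch on type I interferon, while LGP2 (DHX58) tunes their signalling. PKR (EIF2AK2) binds double-stranded RNA and stops translation by phosphorylating eIF2 alpha, and ZBP1 binds left-handed (Z-form) nucleic acid and can start necroptosis through RIPK3 and MLKL. ADAR deaminates adenosine to inosine in the cell's own double-stranded RNA and so keeps that RNA from being recognised. Several of these genes, ADAR included, are themselves induced by interferon.

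RNA-seq libraries held 13034958 to 54883332 counted reads in the MI-503 experiment and 8956156 to 31573027 in the drug combination experiment. Depth was not even within or between groups, and both DB DMSO libraries were shallower than both DB MI-503 libraries. Levels are given as CPM, read counts relative to library size after TMM scaling over the 16 libraries of an experiment. Changes are log2 fold changes with their standard errors (SE) from edgeR, and a gene was called where its p-value, adjusted over all genes tested, was under 0.1. The B-cell markers CD79A, CD79B, MS4A1, PAX5 and CD22 were detected in every group.

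In KARPAS422, the 4 ADAR sgRNAs fell over 14 days relative to the controls, and in K562 1 of the 4 did. The score is the log2 change of an sgRNA relative to the median of the control sgRNAs (48 with at least 30 reads at day 0), and the gene's score is the median over its sgRNAs. In KARPAS422, sgRNA s_17 went from 13721 to 3759 reads, a log2 change of -2.52, with an exact 95% counting interval of -2.57 to -2.47. s_18 went from 9923 to 2913 reads (-2.42, interval -2.48 to -2.36), and s_20 from 3348 to 1732 (-1.60, interval -1.69 to -1.52). s_19 changed least, from 5701 to 5209 reads (-0.78, interval -0.84 to -0.73). The median score over all 564 genes was -0.69 in KARPAS422, near s_19, and -0.23 in K562. For s_17 and s_18, 1 of the 48 control sgRNAs fell further, and for s_19 and s_20, 3 did. PCR reads are not independent molecules, so the intervals cover counting error only, and each line had 1 library per day.

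In K562, s_17 went from 18885 to 16088 reads, a log2 change of 0.04 relative to the controls, and s_18 from 11707 to 11373 (0.23). s_20 went from 5019 to 4534 reads (0.12). s_19, the sgRNA with the smallest change in KARPAS422, was the lowest here, from 7919 to 4749 reads (-0.47), and 10 of 48 controls lay below it. The gene score of ADAR was -2.01 in KARPAS422 and 0.08 in K562, a difference of -2.09. A score below -1 (a 2-fold loss) was reached by 32.6% of the 564 genes in KARPAS422 and by 4.08% in K562, and a difference below -1 by 27.3%. In the KARPAS422 order ADAR was 101st from the lowest, between KDM2A (-2.04) and DAXX (-1.91), and 100 genes scored lower.

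The 2 screens did not lose essential genes to the same degree. The 23 common essential genes of the library, a list of cell division, replication and chromatin genes, had a median score of -3.60 in KARPAS422, where all 23 scored below -1, and of -0.47 in K562, where 3 of 23 did. All 23 scored lower than ADAR in KARPAS422. Divided by the size of that median in the same line, the ADAR score was -0.56 in KARPAS422 and 0.17 in K562. The part of the shallower K562 loss in the ADAR difference was not tested. The other 9 deaminase genes of the library, all of the APOBEC and AID family, scored between -0.82 (APOBEC3G) and -0.32 in KARPAS422, all above ADAR, and between -0.29 and 0.22 in K562.

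**Figure D1:**
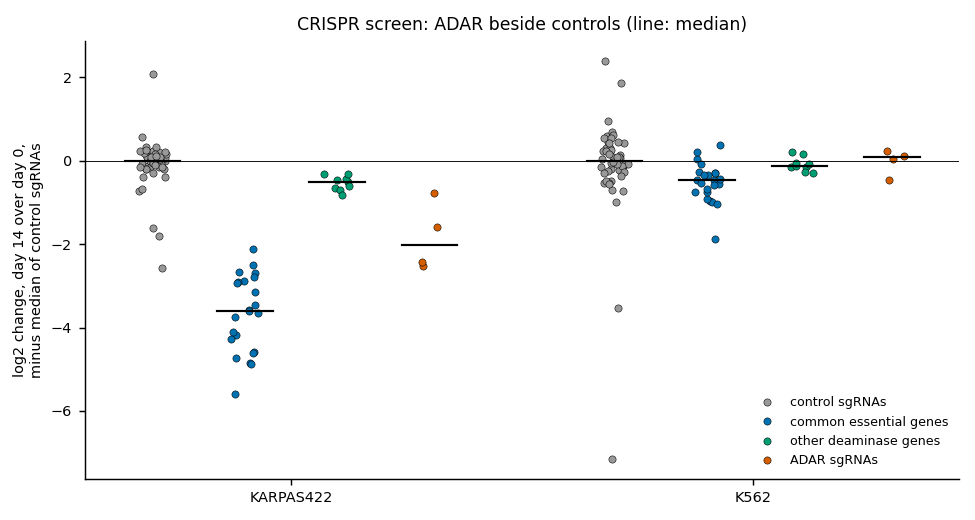
Log2 change from day 0 to day 14, relative to the median control sgRNA, in KARPAS422 and K562, 1 library per day. Points are single control sgRNAs, gene scores of the 23 common essential genes and the 9 other deaminase genes, and the 4 ADAR sgRNAs, with a line at each median. ADAR sgRNAs lay between -2.52 and -0.78 in KARPAS422 and between -0.47 and 0.23 in K562, where the essential genes fell to a median of only -0.47.

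KARPAS422 carried more RNA of ADAR and of most sensors than the other 3 DLBCL lines under DMSO. ADAR (hg38, chromosome 1, 154581695 to 154628013, minus strand) stood at 903 CPM in both KARPAS422 libraries, against 366 and 375 in DB, 385 and 395 in Farage and 351 and 329 in SUDHL5. KARPAS422 was above the other lines without overlap, and edgeR gave log2 differences of 1.31 ± 0.03 (SE) over DB (adjusted p = 8.19e-14), 1.15 ± 0.03 over Farage (adjusted p = 2.96e-13) and 1.39 ± 0.03 over SUDHL5 (adjusted p = 3.04e-14). In bulk RNA, a change in the number of cells that carry a transcript and a change in RNA per cell cannot be told apart. The 3 comparisons share the KARPAS422 libraries. In each of them 6 members were called higher and 1 lower. Of all genes, 42.0% were called higher and 39.2% lower over DB, 41.8% and 38.6% over Farage, and 41.2% and 40.6% over SUDHL5. ZBP1, higher in each, passed the low-count filter only through KARPAS422, and IFIH1 over DB was set against 0 DB reads. These calls of ZBP1 and IFIH1 add no support.

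The widest differences were in RIG-I, LGP2 and ZBP1. DDX58 (chromosome 9, 32455302 to 32526208, minus strand) had 140 and 124 CPM in KARPAS422 and 4.95 to 8.70 in the other lines under DMSO, a log2 difference of 4.70 ± 0.11 over DB, 3.99 ± 0.11 over Farage and 4.37 ± 0.10 over SUDHL5. DHX58 (chromosome 17, 42101404 to 42112714, minus strand) had 52.8 and 51.7 CPM in KARPAS422, 1.16 and 1.17 in DB, 6.70 and 5.23 in Farage and 9.60 and 7.31 in SUDHL5. ZBP1 (chromosome 20, 57603846 to 57620576, minus strand) had 6.62 and 6.30 CPM in KARPAS422 and at most 0.642 in any DMSO library of the others. For all 3 genes the lowest KARPAS422 library was above the highest library of the other lines. Another protein-coding gene model, ENSG00000288684, on the same strand shares 43.2% of the exon bases of RIGI in GENCODE v44, so the DDX58 count is uncertain where reads could be assigned to either.

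PKR and MAVS differed less, and MDA5 was lower in KARPAS422 than in Farage and SUDHL5 but not than in DB. EIF2AK2 (chromosome 2, 37099210 to 37157522, minus strand) had 208 and 195 CPM in KARPAS422, 118 and 120 in Farage, 55.1 and 57.3 in SUDHL5 and 35.5 and 34.5 in DB. MAVS (chromosome 20, 3846799 to 3876123, plus strand) was highest in DB, with 217 and 207 CPM, followed by KARPAS422 (120 and 126), SUDHL5 (88.4 and 85.1) and Farage (65.8 and 60.6). KARPAS422 was therefore lower than DB for MAVS (-0.76 ± 0.04, adjusted p = 6.32e-10) and higher than the other two.

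IFIH1 (chromosome 2, 162267074 to 162318684, minus strand) was low in KARPAS422, at 0.663 and 0.818 CPM, which are 38 and 47 reads. It was higher in Farage, with 2.64 and 2.94 CPM (KARPAS422 over Farage -1.97 ± 0.31, adjusted p = 6.17e-05), and in SUDHL5, with 1.88 and 1.46 CPM (-1.22 ± 0.30, adjusted p = 0.00245). DB held 0 IFIH1 reads in all 4 libraries, with and without MI-503. Against the level of 3 reads in the shallower DB DMSO library, 0.205 CPM, KARPAS422 was at least 3.62-fold higher.

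Per kilobase of annotated exon, the order in KARPAS422 under DMSO was ADAR (73.8 CPM per kb), EIF2AK2 (18.3), DHX58 (13.7), DDX58 (12.8), MAVS (10.4), ZBP1 (1.2) and IFIH1 (0.142). DHX58 and DDX58 overlapped in their libraries (13.5 to 13.8 against 12.0 to 13.5 CPM per kb) and the other neighbours did not. In Farage the order was ADAR (31.8), EIF2AK2 (10.8), MAVS (5.37), DHX58 (1.56), DDX58 (0.768), IFIH1 (0.534) and ZBP1 (0.0775). The lowest KARPAS422 gene was thus IFIH1, and the lowest Farage gene was ZBP1.

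**Figure D2:**
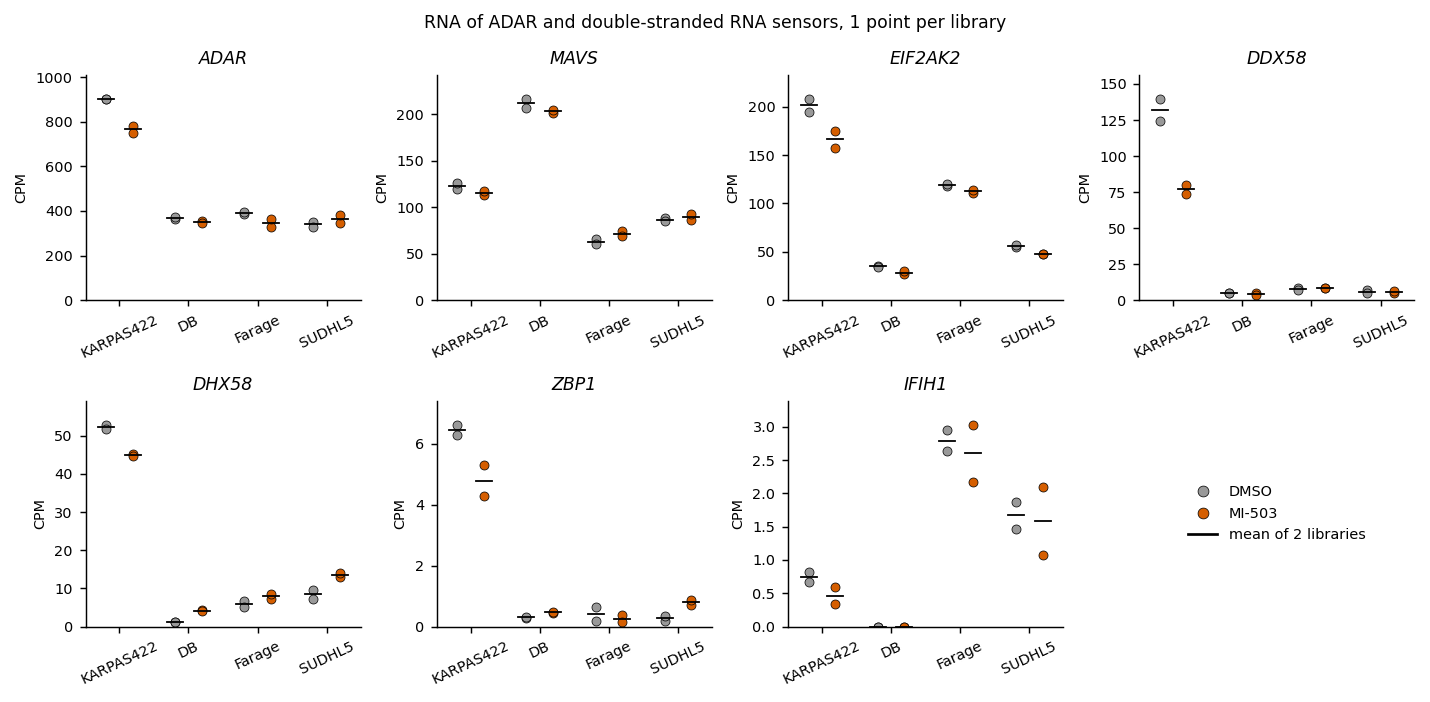
Normalised read counts (CPM, TMM-scaled) of the 7 genes in the 16 libraries of the MI-503 experiment, 1 point per library and a line at the mean of 2. ADAR stood at 903 CPM in both KARPAS422 DMSO libraries and at 329 to 395 CPM in the DMSO libraries of DB, Farage and SUDHL5, and IFIH1 was at 0 in all 4 DB libraries.

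IFIH1 carries the core letters of an interferon response element before its start site, and DDX58 only a shorter and common part of it. RefSeq windows (GRCh38.p14) were found for 5 of the 7 members, and the 250 bases before each start were searched on both strands for the core of the interferon-stimulated response element, which is GAAA, any 2 bases and GAAA, and for its shorter part, which is AA, any 2 bases and GAAA. The longer motif occurs in 3.02% and the shorter in 20.3% of all 35116 windows. The window of IFIH1 held 3 matches of the longer motif, of which 2 overlap, and that of RIGI 3 of the shorter only. The windows of ADAR (3 start sites), EIF2AK2 and MAVS held neither. The EIF2AK2 window, 37156931 to 37157230, lies inside the gene as positioned above, so the bases before that annotated start were not searched. Other forms of the element and other regions were not searched either. The 2 stretches are from the genes with a match, and the capitals mark the match nearest to the start. Both genes rose under the drug combination described further on. So did EIF2AK2 and ADAR, without a match, and DHX58 and ZBP1, without a window. A link between match and rise was not tested.
IFIH1, chr2:162318685-162318745, minus strand: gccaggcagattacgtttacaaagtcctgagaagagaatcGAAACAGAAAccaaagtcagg
RIGI, chr9:32526285-32526372, minus strand: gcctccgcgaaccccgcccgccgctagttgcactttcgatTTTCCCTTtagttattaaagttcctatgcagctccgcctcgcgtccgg
In IFIH1 the match begins 21 bases before the start, and in RIGI the match, read on the opposite strand, begins 136 bases before it.

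MI-503 lowered ADAR and 5 sensors in KARPAS422, by small amounts. ADAR went from 903 and 903 to 781 and 751 CPM (log2 change -0.24 ± 0.03, adjusted p = 2.52e-05). DDX58 fell the most, from 140 and 124 to 80.2 and 73.6 CPM (-0.77 ± 0.06, adjusted p = 1.62e-06), a 1.71-fold drop. EIF2AK2 went from 208 and 195 to 175 and 158 CPM (-0.28 ± 0.04, adjusted p = 0.000479). ZBP1 fell from 6.62 and 6.30 to 5.32 and 4.27 CPM (-0.41 ± 0.12, adjusted p = 0.0192), and DHX58 from 52.8 and 51.7 to 45.1 and 44.7 (-0.22 ± 0.04, adjusted p = 0.0018).

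MAVS differed least among the called members, with 120 and 126 CPM under DMSO and 114 and 117 under MI-503 (-0.09 ± 0.04, adjusted p = 0.0744). IFIH1 went from 0.663 and 0.818 to 0.336 and 0.589 CPM and was not called (-0.76 ± 0.39, adjusted p = 0.135). Of the 7, 6 were called lower and 0 higher, where 26.3% of all 14495 genes were called lower and 25.5% higher. The summed level of 4 fibroblast markers, nearly all DCN, was 729 to 750 CPM in KARPAS422 under DMSO and 851 to 882 under MI-503, against at most 44.8 in the DMSO libraries of the other lines, and that of 4 T-cell markers 156 to 161 and 176 to 181 CPM, against at most 3.34. Their part in these changes and in the line differences was not tested.

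In DB and SUDHL5 the same drug moved members in both directions, and in Farage the 2 members called were lower. In DB, DHX58 rose from 1.16 and 1.17 to 4.21 and 3.97 CPM (1.81 ± 0.21, adjusted p = 1.2e-05), while ADAR (-0.08 ± 0.03) and EIF2AK2 (-0.29 ± 0.06) fell. The DB MI-503 libraries were the deeper ones, and DHX58 there rests on 17 and 18 reads under DMSO. In SUDHL5, DHX58 rose from 9.60 and 7.31 to 12.9 and 14.1 CPM (0.65 ± 0.12, adjusted p = 0.00155). ZBP1 went from 0.198 and 0.348 to 0.696 and 0.885 CPM there (1.74 ± 0.53), from 10 and 5 to 9 and 37 reads. It was called higher but passed the low-count filter only through the MI-503 libraries, so its call adds no support. ADAR in SUDHL5 was called higher (0.11 ± 0.04, adjusted p = 0.0411) although its libraries overlapped, and EIF2AK2 fell (-0.21 ± 0.06).

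In Farage, ADAR went from 385 and 395 to 329 and 364 CPM (-0.20 ± 0.04, adjusted p = 0.00724) and EIF2AK2 from 118 and 120 to 111 and 114 (-0.12 ± 0.04, adjusted p = 0.0978). The members called were 1 higher and 2 lower of 6 tested in DB (34.5% and 34.7% of all genes) and 0 and 2 of 6 in Farage (12.3% and 14.7%). In SUDHL5 they were 3 and 1 of 7, ZBP1 included among the higher (26.3% and 28.7% of all genes). In Farage, 0 were called without DMSO replicate 2 and 1 without DMSO replicate 1. In SUDHL5, 1 was called without MI-503 replicate 2. Farage MI-503 replicate 1 also held the highest summed level of 7 epithelial markers (59.4 CPM, against 2.14 to 6.27 in the other Farage libraries) and of 5 erythroid markers (26.4 CPM against 0.356 to 0.654). Without it ADAR remained called in Farage, and the part of that RNA in the other values was not tested.

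The difference between the KARPAS422 and Farage responses was tested in 1 fit. The KARPAS422 change minus the Farage change was -0.86 ± 0.15 for DDX58 (adjusted p = 0.002), -0.66 ± 0.14 for DHX58 (adjusted p = 0.00635), -0.25 ± 0.08 for MAVS (adjusted p = 0.0576) and -0.19 ± 0.07 for EIF2AK2 (adjusted p = 0.0887). For ADAR the difference was -0.07 ± 0.06 (95% interval -0.18 to 0.05) and was not called (adjusted p = 0.527). Thus 4 of 7 members were called lower, where 14.7% of all genes were. The MAVS and EIF2AK2 calls were lost under RLE scaling and under total counts alone, and the number of calls was 1 without Farage DMSO replicate 2 and 2 without Farage DMSO replicate 1, without either KARPAS422 DMSO library and without KARPAS422 MI-503 replicate 2.

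In the drug combination experiment the sensors of KARPAS422 moved upward, and most under both drugs. IFIH1 had 2.25 and 2.36 CPM in control cells, 10.7 and 10.9 under VTP50469, 11.6 and 11.9 under EPZ-6438, and 61.7 and 42.8 under both. The 4 groups did not overlap between control, single drugs and both drugs. ZBP1 had 3.49 and 4.56 CPM in control cells, 22.4 and 19.8 under VTP50469, 15.5 and 14.7 under EPZ-6438, and 86.8 in both libraries under both drugs. The log2 change under both drugs was 4.55 ± 0.24 for IFIH1 (23.3-fold, adjusted p = 0.000122) and 4.46 ± 0.14 for ZBP1 (adjusted p = 4.66e-05).

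The RIG-I and LGP2 genes rose in smaller steps. DDX58 had 68.5 and 61.6 CPM in control cells, 124 and 126 under VTP50469, 126 and 136 under EPZ-6438, and 294 and 213 under both, a log2 change of 2.00 ± 0.19 (adjusted p = 0.000658). DHX58 had 27.1 and 36.3 CPM in control cells, 78.1 and 73.2 under VTP50469, 63.8 and 61.8 under EPZ-6438, and 105 and 116 under both (1.83 ± 0.14, adjusted p = 0.000346). VTP50469 alone raised IFIH1 by 2.30 ± 0.23, ZBP1 by 2.45 ± 0.14, DHX58 by 1.33 ± 0.14 and DDX58 by 1.01 ± 0.19. EPZ-6438 alone raised the same 4 by 2.33 ± 0.24, 1.87 ± 0.15, 0.97 ± 0.14 and 0.99 ± 0.19.

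PKR and ADAR moved less. EIF2AK2 had 167 and 133 CPM in control cells and 360 and 202 under both drugs (0.95 ± 0.29, adjusted p = 0.0405), and 199 to 266 CPM under the single drugs, a range that holds 1 of the libraries under both. ADAR had 852 and 881 CPM in control cells, 1105 and 1119 under VTP50469, 1045 and 1073 under EPZ-6438, and 1190 and 972 under both (0.36 ± 0.12, adjusted p = 0.0515). The 2 libraries under both drugs stood apart from each other for these genes: without replicate 1 the ADAR change was -0.02 (adjusted p = 0.832) and that of EIF2AK2 0.24 (adjusted p = 0.22), whereas IFIH1 (4.03), ZBP1 (4.23), DDX58 (1.53) and DHX58 (1.68) were still called. The median change of all genes under both drugs was 0.10, and 0.33 with scaling by total counts alone, a shift against which these smaller changes are read. MAVS had 140 and 150 CPM in control cells and 178 and 146 under both drugs, and was not called (0.21 ± 0.13, adjusted p = 0.243).

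**Figure D3:**
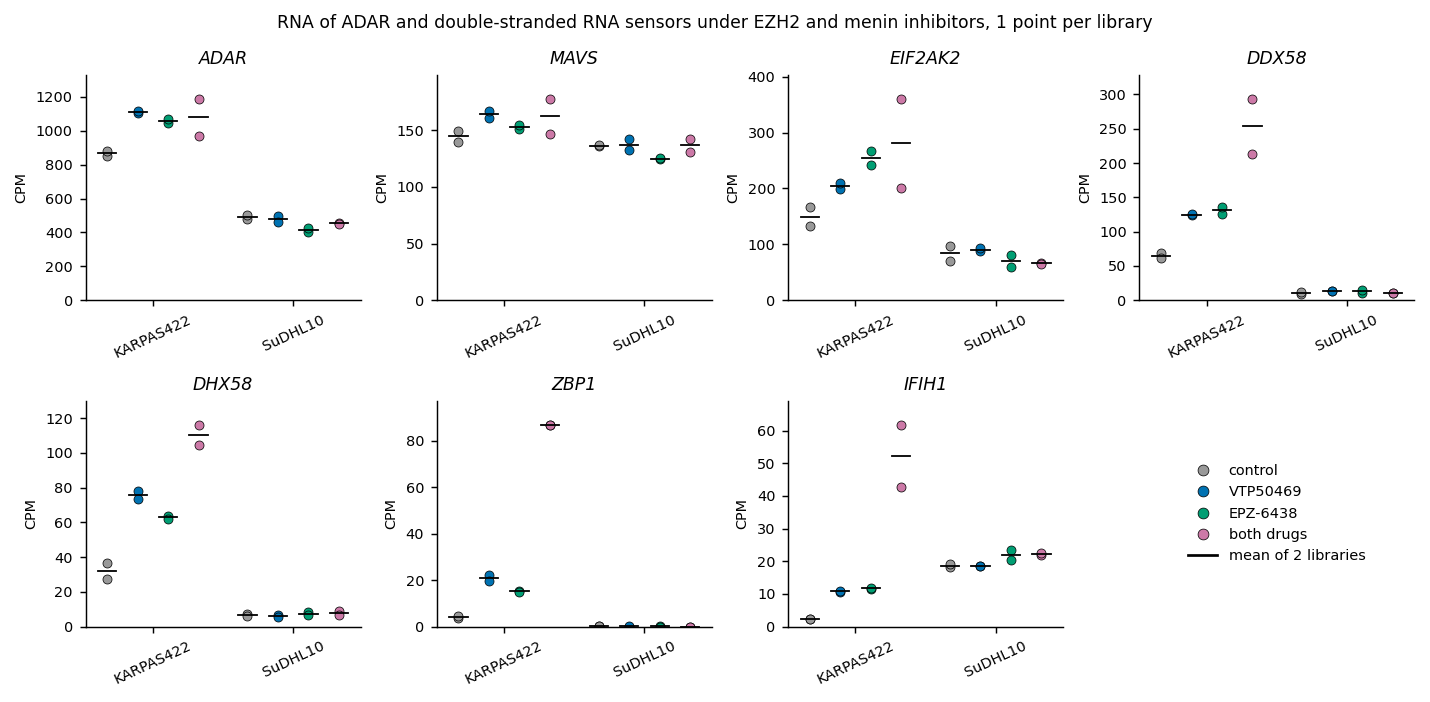
Normalised read counts (CPM, TMM-scaled) of the 7 genes in the 16 libraries of the drug combination experiment, 1 point per library and a line at the mean of 2. In KARPAS422, IFIH1 went from 2.25 and 2.36 CPM in control cells to 61.7 and 42.8 under both drugs and ZBP1 from 3.49 and 4.56 to 86.8, while in SuDHL10 no such step is seen and ZBP1 was at 0 to 2 reads per library.

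In counts, EPZ-6438 and VTP50469 each had 4 of the 7 members called higher and 0 lower, where 8.27% of all genes were called higher and 10% lower under EPZ-6438, and 3.18% and 0.197% under VTP50469. Under both drugs 6 were called higher and 0 lower, where 23.5% and 25.2% of all genes were. These comparisons share the control libraries. The replicate numbers paired the libraries here, and with the replicate as a block EIF2AK2 was also called under EPZ-6438 (0.76, adjusted p = 0.0463) and ADAR under VTP50469 (0.43, adjusted p = 0.0991). Some or all calls under each single drug were lost without VTP50469 replicate 1, and also without EPZ-6438 replicate 2. Only 1 of these libraries belongs to each comparison.

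Adding VTP50469 to EPZ-6438 raised the same 4 sensors again. IFIH1 rose by 2.22 ± 0.20 (adjusted p = 0.00431), ZBP1 by 2.58 ± 0.13 (adjusted p = 0.00144), DDX58 by 1.01 ± 0.19 (adjusted p = 0.0242) and DHX58 by 0.86 ± 0.13 (adjusted p = 0.0153). These are 4 of 7, where 10% of all genes were called higher. ADAR differed by 0.09 ± 0.12 (95% interval -0.14 to 0.32). Without EPZ-6438 replicate 2 the count was 0, without VTP50469 replicate 1 it was 2, and without both-drugs replicate 1 it was 7, of which ADAR (-0.30), EIF2AK2 (-0.51) and MAVS (-0.24) were lower.

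The effect of both drugs was then set against the sum of the single effects on the log2 scale. The excess was 0.00 ± 0.27 for DDX58, 0.13 ± 0.19 for ZBP1 (95% interval -0.25 to 0.51) and -0.08 ± 0.30 for IFIH1 (95% interval -0.67 to 0.50). It was -0.46 ± 0.19 for DHX58 and -0.34 ± 0.17 for ADAR. edgeR called 0 of 7 members and 0% of all genes. At an unadjusted p under 0.05 it had 1 member, and DESeq2 called 0. Without both-drugs replicate 1, 6 members were called, all lower than the sum (-1.04 to -0.50), and ZBP1 was not (-0.11).

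In SuDHL10 the members started from other levels and moved little. Control cells had 18.1 and 19.1 CPM of IFIH1, above KARPAS422 (3.04 ± 0.21, adjusted p = 3.18e-07), and less of DDX58 (9.35 and 12.0 CPM, -2.57 ± 0.18), DHX58 (7.26 and 6.22 CPM, -2.20 ± 0.20), EIF2AK2 (69.8 and 97.8 CPM, -0.81 ± 0.18) and ADAR (478 and 505 CPM, -0.79 ± 0.12). ZBP1 had 2 reads in each control library of SuDHL10, and KARPAS422 was 40.1-fold higher, with a 95% counting interval of 15.3 to 149. MAVS, at 136 and 137 CPM, was not called (-0.05 ± 0.14). In all, 1 member was called higher in SuDHL10 and 5 lower, where 30.6% and 31.8% of all genes were. ZBP1, 1 of the 5, passed the low-count filter only through KARPAS422.

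Under both drugs SuDHL10 had 21.9 and 22.5 CPM of IFIH1 (0.23 ± 0.11, adjusted p = 0.201), 11.2 and 10.5 of DDX58 (-0.01 ± 0.18, 95% interval -0.36 to 0.34), 8.90 and 6.93 of DHX58 (0.20 ± 0.20) and 455 and 452 of ADAR (-0.14 ± 0.08). ZBP1 was at 0 reads in both libraries. edgeR called 0 of the 6 members tested, had 0 at an unadjusted p under 0.05, and DESeq2 also called 0, where 13.7% of all genes were called higher and 7.93% lower. EPZ-6438 alone lowered ADAR, from 478 and 505 to 401 and 428 CPM (-0.26 ± 0.08, adjusted p = 0.0628), the 1 member called, where 12.1% of all genes were called higher and 5.39% lower. That call was lost without any single control, VTP50469 or both-drugs library (0 members), and 2 were called without EPZ-6438 replicate 2.

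VTP50469 alone called 0 members and 0% of all genes in SuDHL10 by edgeR, with 0 members at an unadjusted p under 0.05, and DESeq2 called 0 members. Both drugs against EPZ-6438 called 0 members (4.47% of all genes called; 0 members at an unadjusted p under 0.05 and 0 by DESeq2). The test beyond the sum of single drugs called 0 members as well (0.0526% of all genes; 1 member at an unadjusted p under 0.05 and 0 by DESeq2). With the replicate as a block the counts in SuDHL10 were 4 under EPZ-6438, 3 under both drugs (ADAR -0.14, IFIH1 0.22 and EIF2AK2 -0.36), 1 for both drugs against EPZ-6438 and 1 beyond the sum. Left-out libraries also gave 1 call: under both drugs without control replicate 1 or either EPZ-6438 library, and for both drugs against EPZ-6438 and beyond the sum without EPZ-6438 replicate 1. Treatment lasted 24 h in SuDHL10 and 48 h in KARPAS422, so line and time cannot be told apart.

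The both-drugs effect was compared between the 2 lines in 1 fit of all 16 libraries, a test added after the results within each line were seen. It was larger in KARPAS422 by 4.25 ± 0.23 for IFIH1 (adjusted p = 7.93e-07), 1.95 ± 0.26 for DDX58 (adjusted p = 0.000279), 1.57 ± 0.25 for DHX58 (adjusted p = 0.00079), 1.26 ± 0.34 for EIF2AK2 (adjusted p = 0.0191) and 0.44 ± 0.13 for ADAR (adjusted p = 0.0243). ZBP1 was called too, but its fitted difference rests on 0 to 2 reads in SuDHL10. ZBP1 passed the low-count filter only through KARPAS422, so its call adds no support. With MAVS uncalled (0.16 ± 0.14), 6 of 7 members were called higher, ZBP1 included, where 10.6% of all genes were. Leaving out any 1 of the 16 libraries gave 6 or 7 calls.

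MI-503 and VTP50469 both bind menin, and their values in KARPAS422 stood on opposite sides of 0. MI-503 at 0.8 µM for 3 days gave -0.77 for DDX58, -0.41 for ZBP1 and -0.22 for DHX58, and VTP50469 at 0.33 µM for 48 h gave 1.01, 2.45 and 1.33. Dose, time and experiment differ, so the values are set side by side and not compared. DMSO levels differed too: IFIH1 had 0.663 and 0.818 CPM in the DMSO libraries of the first experiment and 2.25 and 2.36 in the controls of the second.

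**Figure D4:**
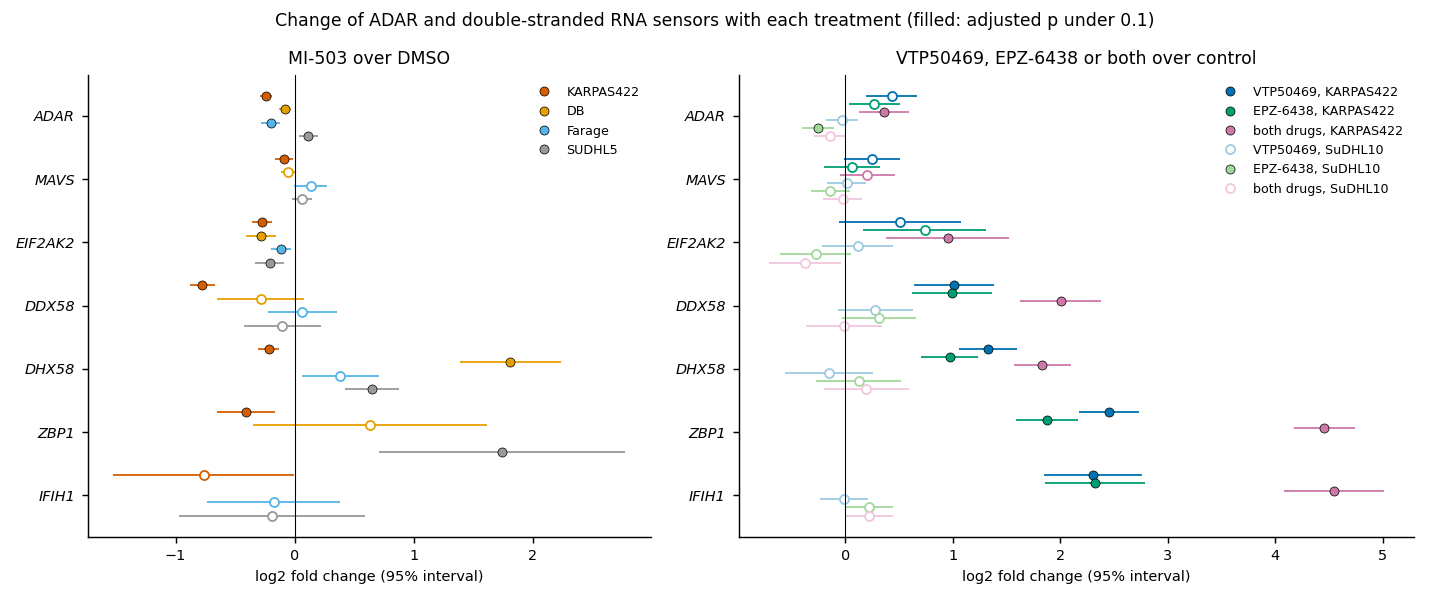
Log2 fold changes of the 7 genes with 95% intervals, at left for MI-503 over DMSO in 4 lines and at right for VTP50469, EPZ-6438 or both over control in KARPAS422 and SuDHL10. Filled points were called (adjusted p under 0.1). KARPAS422 values lie at or below -0.09 at left, and at right IFIH1 and ZBP1 reach 4.55 and 4.46 under both drugs.

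The other genes of the pathway were read from a list of 65 genes in 7 groups: RIG-I-like receptor and TLR3 signalling, the OAS and RNase L system, PKR and eIF2 alpha, ZBP1 cell death, other double-stranded RNA editing, binding and decay, the type I interferon receptor and response, and cytosolic DNA sensing. Under DMSO, KARPAS422 had 42 list genes called higher and 14 lower of 61 tested over DB, 38 and 16 over Farage, and 42 and 15 over SUDHL5. The shares of all genes called higher and lower were 42.0% and 39.2% over DB, 41.8% and 38.6% over Farage, and 41.2% and 40.6% over SUDHL5. The list medians were 0.70, 0.47 and 0.69 on the log2 scale, against 0.05, 0.04 and 0.01 over all genes. All 5 genes of the OAS and RNase L system were higher in each comparison, and of the 14 interferon genes 12, 12 and 11 were. These counts and the list counts include genes near 0 in the other lines, whose calls add no support. Under DMSO, OASL had a mean of 0.0667 CPM in DB and 0.199 in Farage, and TLR3 0.132 in DB. MX1, an antiviral GTPase, had a mean of 956 CPM in KARPAS422, against 2.07 (DB), 28.2 (Farage) and 15.3 CPM (SUDHL5). IFIT1, which binds viral RNA, had 166 CPM in KARPAS422 and 0.369, 0.235 and 0.268 in DB, Farage and SUDHL5. It passed the low-count filter only through KARPAS422, so its call adds no support. OAS3, which makes the activator of RNase L, had 267 CPM in KARPAS422 and 1.28, 17.8 and 3.52 in DB, Farage and SUDHL5. AIM2, a sensor of cytosolic DNA, was lower in KARPAS422 (1.81 CPM) than in SUDHL5 (95.6 CPM, -5.72 ± 0.11) and Farage (48.5 CPM, -4.80 ± 0.12) and higher than in DB (0.0325 CPM).

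Under MI-503 in KARPAS422, 35 list genes fell and 12 rose of 62 tested (26.3% and 25.5% of all genes), with a median of -0.18 against 0.01 over all genes. Of the 15 interferon genes 10 fell and 2 rose. IFIT1 fell by 1.05 on the log2 scale (SE 0.09, adjusted p = 6.25e-06), USP18, a brake on the interferon receptor, by 0.99 (SE 0.07), IFIT3 by 0.79 and MX1 by 0.72. OAS3 fell by 0.74 and TRIM25, a ubiquitin ligase of the RIG-I pathway, by 0.73. In DB 21 list genes rose and 19 fell of 55, with a median of -0.03 (34.5% and 34.7% of all genes). STING1, counted among those that rose, passed the low-count filter only through MI-503. In SUDHL5 18 rose and 15 fell of 58 (median 0.04; 26.3% and 28.7% of all genes). In Farage 5 rose and 10 fell of 56 (median -0.02; 12.3% and 14.7% of all genes), where scaling by total counts gave 7 and 5. In Farage the list count was 5 without either DMSO library. In DB, IRF7 rose by 1.55 and IKBKE fell by 1.39. DHX9, a helicase that unwinds double-stranded RNA, fell by 1.22 in DB, by 0.89 in SUDHL5 and by 0.26 in Farage. In DB the interferon genes went upward, 7 called higher and 0 lower of 10, among them IRF9 (1.04 ± 0.08).

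Under the combination drugs in KARPAS422, OAS and interferon genes were called higher and none lower. The interferon group was smaller here, since IFIT1, IFIT2, IFIT3, IRF9 and IFNAR2 are listed at 0 in all 16 libraries of this table, while IFIT1 had 166 CPM in KARPAS422 in the first one, so group counts of the 2 experiments rest on different genes. VTP50469 had 13 list genes called higher and 0 lower of 57 (15 and 2 with scaling by total counts), EPZ-6438 13 and 6, and both drugs 22 and 14 (27 and 11 with scaling by total counts), with medians of 0.12, 0.16 and 0.17 against 0.00, -0.02 and 0.10 over all genes. Of the 10 interferon genes 6, 7 and 8 were called higher and 0 lower, and of the 5 OAS and RNase L genes 4 in each. Under both drugs OASL rose by 3.57 ± 0.10 (adjusted p = 4.66e-05), USP18 by 3.02 ± 0.18, IFI44L by 2.67 ± 0.30, OAS3 by 2.43 ± 0.12 and STAT2, a transcription factor of the interferon receptor, by 2.28 ± 0.11. AIM2 rose from a mean of 2.40 to 38.9 CPM (4.05 ± 0.21).

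Under both drugs 25.2% of all genes were called lower and 23.5% higher, and the list genes called lower all belonged to the other groups. In the group of double-stranded RNA editing, binding and decay, 5 of 12 were lower and 1 higher, and in the PKR and eIF2 alpha group 3 of 7 were lower and 1 higher. IFNB1, RIPK3 and MLKL were chosen after their values were seen, so their KARPAS422 values are described without a test. IFNB1, which encodes interferon beta, went from 4 reads in the 2 control libraries to 41 in the 2 libraries under both drugs. RIPK3 went from a mean of 1.17 to 5.44 CPM and MLKL from 7 to 84 reads. In SuDHL10 RIPK3 also rose under both drugs, from a mean of 2.11 to 4.75 CPM.

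The list counts depended on single libraries under the single drugs. Under VTP50469 they were 0 without VTP50469 replicate 1, 3 without EPZ-6438 replicate 2, 7 without VTP50469 replicate 2 and 8 without control replicate 1, and under EPZ-6438 0 without EPZ-6438 replicate 2 and 3 without VTP50469 replicate 1. In SuDHL10, 5 list genes rose and 7 fell of 52 under both drugs (6 and 2 with scaling by total counts) and 4 and 7 under EPZ-6438 (5 and 4), with medians of -0.08 and -0.05. Of all genes, 13.7% were called higher and 7.93% lower under both drugs, and 12.1% and 5.39% under EPZ-6438. NLRX1 and ADARB1, the second adenosine deaminase of double-stranded RNA, rose under both drugs by 0.86 ± 0.13 and 0.84 ± 0.15. The remaining list genes called higher there were USP18 (1.40 ± 0.23), RIPK3 (1.15 ± 0.34) and MX1 (0.69 ± 0.21). Their means under both drugs were 5.56, 4.75 and 4.54 CPM. The 7 called lower under both drugs were OAS1, TBK1, EIF2S1, DNAJC3, STAU1, ZFR and PNPT1. OAS1 went from a mean of 43.4 to 33.8 CPM (-0.39 ± 0.10, adjusted p = 0.0369). OAS1 and OAS2 were also called lower under EPZ-6438 in SuDHL10. VTP50469 called 0 list genes there, with 2 at an unadjusted p under 0.05 and 0 by DESeq2. With the replicate as a block the list counts were 21 under EPZ-6438, 29 under both drugs and 1 under VTP50469. Left-out libraries moved the count under both drugs to between 3 and 22: it was 3 without both-drugs replicate 1, 4 without both-drugs replicate 2, 5 without control replicate 2 and 22 without either EPZ-6438 library. Against KARPAS422, control SuDHL10 cells had 15 list genes higher and 24 lower of 55 (8 and 28 with scaling by total counts), MX1 the furthest at 2.75 against 966 CPM. Of the lower ones, OASL, IFI44L, IRF7 and TLR3 passed the low-count filter only through KARPAS422, so their calls add no support. Of all genes, 30.6% were called higher and 31.8% lower in SuDHL10 against KARPAS422.

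**Figure D5:**
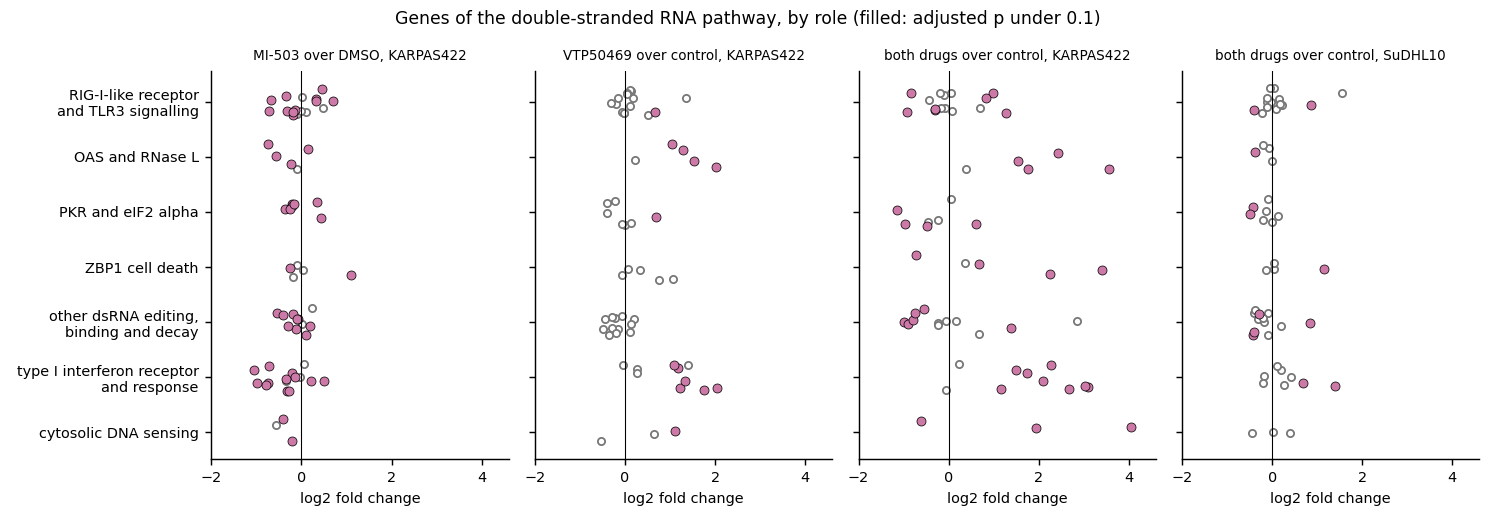
Log2 fold changes of the listed double-stranded RNA pathway genes that were tested, 1 point per gene, in 7 groups by role, for MI-503, VTP50469 and both drugs in KARPAS422 and for both drugs in SuDHL10. Filled points were called (adjusted p under 0.1). In KARPAS422 most OAS and interferon genes lie left of 0 under MI-503 (10 of 15 interferon genes called lower) and right of 0 under both drugs (8 of 10 called higher, a smaller set since 5 genes are listed at 0 in that table). In SuDHL10, 2 of 8 interferon genes were called, USP18 and MX1, both higher, and OAS1 was called lower.

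Over the 16 libraries of the MI-503 experiment the genes most like ADAR in level were EXOC5, TBXT, H2BC12, DICER1 and FAM76B (Pearson r of 0.985 to 0.988 among 10559 genes with a mean of at least 5 CPM). Over the 16 libraries of the combination experiment they were LAP3, IFI44L, MSL3, MMD and MPEG1 (r of 0.988 to 0.992 among 9325 genes). Among the members, DDX58 followed ADAR most closely in both (0.980 and 0.971), and IFIH1 did not in the second (-0.23). These values describe libraries that share lines and treatments, and KARPAS422 libraries stand apart from the rest, so no p is given. In the KARPAS422 libraries of the combination experiment, the summed level of the fibroblast markers was 603 to 646 CPM in control cells, 777 to 778 under VTP50469, 990 to 1017 under EPZ-6438 and 898 to 1140 under both drugs, and that of the T-cell markers 249 to 285, 261 to 263, 260 to 289 and 212 to 294 CPM. Both-drugs replicate 2 had the highest epithelial sum, 18.1 CPM against 0.698 to 2.86 in the other 7. The part of these in the member values was not tested.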

How the data were processed

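sgRNA read counts at day 0 and day 14 (1 library per line and day) and gene read counts of 32 RNA-seq libraries were used as deposited. The authors trimmed sgRNA reads with cutadapt and counted them with MAGeCK. RNA-seq reads of ribosomal RNA-depleted libraries were aligned to hg38 with HISAT2 (2.1.0) and counted per gene with featureCounts (1.6.1), versions per the submitters' processing notes; both deposited RNA-seq tables hold raw counts without normalisation. Neither the annotation version nor the strand setting is given in the sources used here, and without strand a gene and an antisense neighbour cannot be told apart. The 41 chromatin (CUT&Tag) samples were not analysed here.

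Gene counts were tested with edgeR 4.0.16 (R 4.3.3), using TMM scaling, filterByExpr, the quasi-likelihood test and Benjamini-Hochberg adjustment over all genes tested, with a call at an adjusted p under 0.1. MI-503 was fitted within each line, DMSO lines together, the KARPAS422 and Farage responses in 1 interaction fit, and the 4 combination groups within each line. sgRNA counts were scaled to equal totals, a pseudocount of 1 was added, sgRNAs under 30 reads at day 0 were dropped, and log2 changes were centred on the control sgRNAs. DESeq2 1.42.0, RLE scaling, total counts alone, no low-count filter, a replicate block, other sets of libraries and leaving out each library were alternatives. The script was checked on simulated counts. Gene positions and exon lengths came from GENCODE v44 on hg38.

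Same-numbered libraries deviated together in the combination experiment (correlations of 0.390 to 0.809 over 6 pairs of groups in KARPAS422 and 0.158 to 0.694 in SuDHL10), so the numbers were taken as pairing there, from these values and not from the labels. They did not in the MI-503 experiment (-0.308 to 0.147). Replicates differed by more than counting error in every group (chi-square per gene of 1.82 or more), which does not show that they were separate cultures. Every library was counted as its own replicate. The main values come from fits without the pairing, and those with the replicate as a block are given as alternatives. The 7 genes and the pathway list were chosen with earlier results of these data known. Named list genes were, per comparison, up to 6 called genes with the largest change among those with a mean of at least 5 CPM and no overlap between groups, and those that went against their group by 1.5-fold. Treatment doses and times are from the study's methods and legends.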

Additional observations from a re-analysis of the deposited data

Results flagged for a closer look

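Both sets of differences below were found by testing the effect of 1 treatment between 2 cell lines in 1 edgeR fit. MI-503 moved 4 members differently in KARPAS422 and Farage: DDX58 by -0.86, DHX58 by -0.66, MAVS by -0.25 and EIF2AK2 by -0.19 (log2, KARPAS422 minus Farage). In KARPAS422 the changes were -0.77, -0.22, -0.09 and -0.28, and in Farage 0.06, 0.38, 0.13 and -0.12. VTP50469 with EPZ-6438 moved 6 members differently in KARPAS422 and SuDHL10: ZBP1 by 8.38, IFIH1 by 4.25, DDX58 by 1.95, DHX58 by 1.57, EIF2AK2 by 1.26 and ADAR by 0.44 (log2, KARPAS422 minus SuDHL10). The ZBP1 value is fitted on 0 to 2 reads per SuDHL10 library and gives no size. ZBP1 passed the low-count filter only through KARPAS422, so its call adds no support.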

How the results depend on the processing

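Of 474 alternative values for 37 main results, 412 kept their direction and side of the threshold or stayed within 1.5 times the count. In the screen, the ADAR score in K562 turned to -0.0211 with the mean over sgRNAs, and scaled to the common essential median the KARPAS422 score was -0.559 and the difference -0.729. Members called under MI-503 in Farage (2) became 1 with total counts alone, 1 with DESeq2 and 4 with the replicate block. The KARPAS422 and Farage difference (4) became 2 with RLE and 2 with total counts. With the 2 compared groups alone the list count under EPZ-6438 in KARPAS422 was 30 instead of 19. In SuDHL10, members under EPZ-6438 (1) became 0 with total counts and 0 with the 2 groups alone, where the list count (11) became 4. Members under both drugs (0) became 1 without the low-count filter and 1 with the 2 groups alone.

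With the replicate block in SuDHL10, members called were 4 under EPZ-6438, 3 under both drugs, 1 for both drugs against EPZ-6438 and 1 beyond the sum, and list counts 21, 29 and, under VTP50469, 1. In the MI-503 experiment the libraries share only a number, and beside Farage the block left 6 members called in KARPAS422, 3 in DB and 4 in SUDHL5.

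Where 1 library was left out, the lone library was assumed to vary like the other groups. Members called under MI-503 ranged from 0 to 3 in Farage (list 5 to 17) and from 1 to 4 in SUDHL5, and the KARPAS422 and Farage difference from 1 to 5. In KARPAS422, EPZ-6438 gave 0 to 6 (list 0 to 26), VTP50469 0 to 6 (list 0 to 19), both drugs against EPZ-6438 0 to 7 and beyond the sum 0 to 6. In SuDHL10, EPZ-6438 gave 0 to 2, both drugs 0 to 1 (list 3 to 22), both drugs against EPZ-6438 0 to 1 and beyond the sum 0 to 1. For ADAR in KARPAS422, both drugs against control ranged from -0.018 to 0.51 and both drugs against EPZ-6438 from -0.30 to 0.26; the latter ranged from -0.51 to 0.59 for EIF2AK2 and from -0.24 to 0.31 for MAVS. DDX58 beyond the sum ranged from -0.50 to 0.28. The 5 reversals among member values all came without both-drugs replicate 1. The cause was not tested.

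Scaling by total counts moved the share of higher calls over all genes from 45.5% to 62% (MI-503, Farage), 45.2% to 66.5% (EPZ-6438), 94.2% to 74.7% (VTP50469) and 48.3% to 64.7% (both drugs) in KARPAS422, 69.2% to 89.4% (EPZ-6438) and 63.3% to 86.9% (both drugs) in SuDHL10, and 49% to 36.6% between their controls. For the interaction RLE gave 53.7% instead of 39.4%, and for the difference between KARPAS422 and SuDHL10 48.4%, or 55.2% with total counts, instead of 34.7%.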
